A study of Gallus gallus with 16 samples.

Results

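Retinoic acid is made, broken down and sensed by a small set of genes, of which 10 were followed here in the back of the chick eye. They were RDH10, DHRS3, ALDH1A1, ALDH1A2 and ALDH1A3 on the side of synthesis, CYP26A1 and CYP26B1 on the side of breakdown, the binding protein CRABP1, and the receptors RARA and RARB. Each was taken as the gene of that name with at least 10 counts in at least 4 of the 16 libraries, which gave 10 of the 17108 genes counted. For 8 of them the deposited table gave the current symbol. The other 2 were found by their RefSeq accession, since the table lists ALDH1A3 as ALDH6 and CRABP1 as CRABP-I.

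Vitamin A reaches its acid form by successive oxidations. RDH10 turns retinol into retinal, DHRS3 runs that step backwards, and the ALDH1A enzymes oxidise retinal irreversibly to retinoic acid. CYP26 enzymes hydroxylate the acid and so clear it, CRABP1 holds it in the cytoplasm, and the RAR receptors, paired with RXR, bind DNA and switch genes on when the acid is present. In the chick, retinoic acid made in the choroid by ALDH1A2 is a known candidate messenger between the retina and the growing sclera, while ALDH1A1 and ALDH1A3 are best known for marking the dorsal and the ventral embryonic retina.

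The samples were the retina, retinal pigment epithelium (RPE) and choroid of the right eye, as a combined sample, from 16 male Leghorn/New Hampshire chicks reared under a 12 h light cycle, with 4 chicks in each of 4 groups. No-Lens controls wore no occluder. The other 12 chicks wore a translucent occluder over the right eye from post-hatch day 5 for 7 days, which is form deprivation (FD), and were collected when it came off (FDMR 0 h) or after 6 h or 24 h of unobstructed vision (FDMR 6 h and FDMR 24 h). The labelled ages were 20 days for the first 3 groups and 21 days for FDMR 24 h, whereas the treatment text places occluder removal on day 12, so only the order of the groups is used here. The chicks of a group had been selected from a larger number for comparable axial length, the FDMR 6 h chicks were collected later in the light phase than the rest, and the FDMR 24 h chicks were a day older, so that hour of collection and recovery time cannot be told apart in comparisons with FDMR 6 h, nor age and recovery time in those with FDMR 24 h.

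Each chick gave its own library, so all errors below are over chicks. Counts on genes ran from 3039798 to 4816425 in 15 libraries and were 1553717 in the remaining library, FDMR 24 h replicate 2. The fold changes and calls of the retinoic acid genes that use FDMR 24 h were also computed without that library. Results for other named genes, gene lists, summed marker levels and correlations are given with all libraries only, so their dependence on it was not tested. Levels are given as CPM (each library's counts divided by its TMM-scaled total and set to a common total), and differences as log2 fold changes from edgeR's quasi-likelihood test with p adjusted over the 11334 genes tested. A gene was called at an adjusted p under 0.05. Gene length was not used, so levels are compared between groups and not between genes. Markers of photoreceptors, RPE and choroid were present, though not every marker listed was in the count table. It held 5 of 6 cone markers listed, 8 of 8 RPE markers and 6 of 8 connective tissue markers. Summed levels ran from 4165 to 6679 CPM for 5 cone markers, from 1749 to 2557 CPM for 8 RPE markers and from 568 to 1080 CPM for 6 connective tissue markers of the choroid and sclera. In such a mixed tissue, fewer cells of a type and less RNA per cell cannot be told apart.

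**Figure D1:**
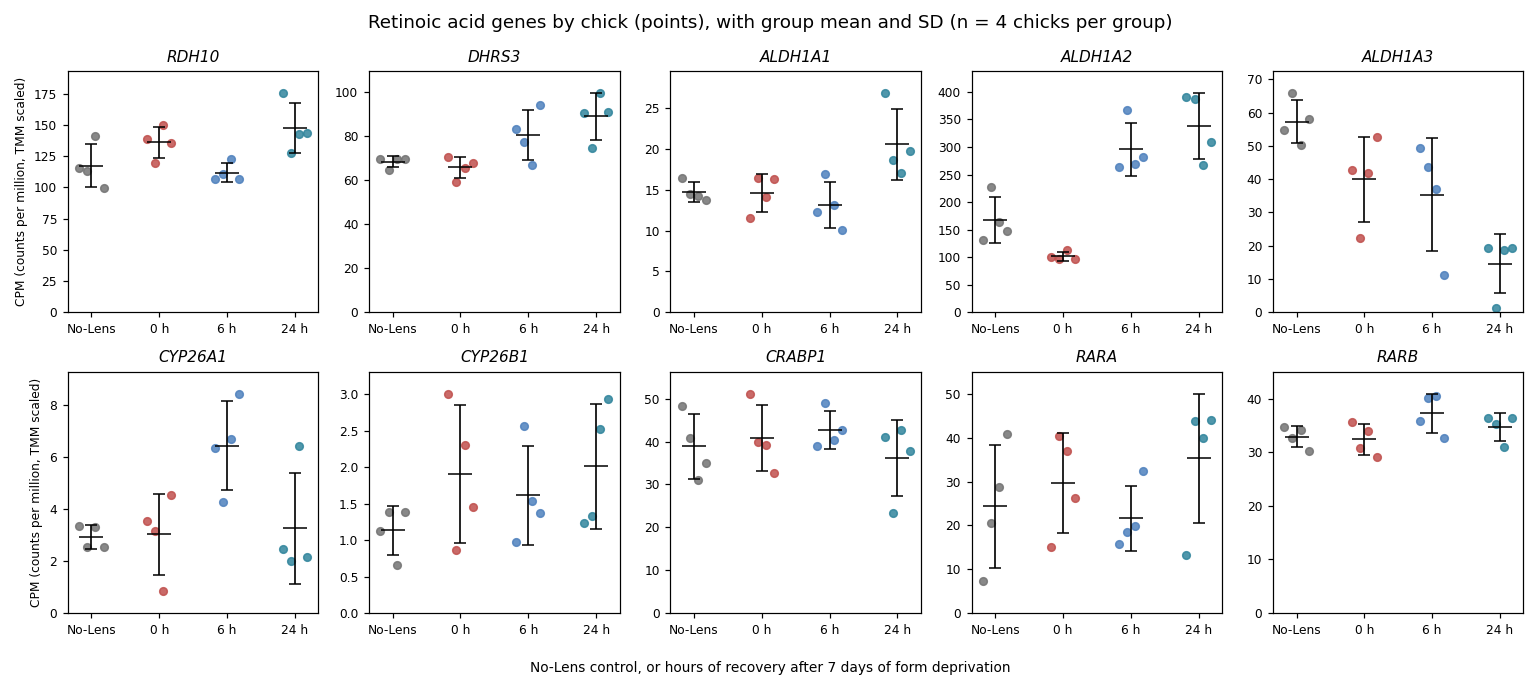
Level of each of the 10 retinoic acid genes in CPM (vertical axes, each starting at 0) by group (horizontal axes), where a point is a chick and the bars are the group mean and SD of 4 chicks. ALDH1A2 lies between 96.1 and 113 CPM in the FDMR 0 h chicks and between 263 and 390 CPM in the FDMR 6 h and 24 h chicks, while ALDH1A3 falls to between 1.33 and 19.3 CPM at 24 h.

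Of the 10 retinoic acid genes, ALDH1A2, ALDH1A3 and DHRS3 passed the test in at least 1 comparison, and the genes of breakdown, binding and reception in none. At FDMR 0 h vs control none of the 10 was called, where 0.0265% of all genes were. ALDH1A2 was the only member called at 6 h, both against 0 h, where 3.19% of all genes were called, and against the control, where 2.74% were. None of the 10 was called at 24 h vs 6 h against 1.94% of all genes, although 4 members had an unadjusted p under 0.05, as did 15.7% of all genes. DESeq2 and the likelihood ratio test called 2 of them there, ALDH1A1 and RDH10, and limma-voom none. Of all 11334 genes DESeq2 called 340 there, the likelihood ratio test 378 and limma-voom 196. ALDH1A2 and DHRS3 were the 2 called at 24 h vs 0 h, against 1.12% of all genes. Compared with the control, the 2 called at 24 h were ALDH1A2, which was higher, and ALDH1A3, which was lower, against 1.33% of all genes. The joint test over 0 h, 6 h and 24 h called ALDH1A2 and DHRS3, against 3.71%. These comparisons share groups, so their calls are not independent of each other. For 0 h vs control, the count of 0 stands beside 1 member with an unadjusted p under 0.05 in edgeR, ALDH1A2, where 4.01% of all genes had one. DESeq2 and edgeR's likelihood ratio test each called that gene, while limma-voom called no member. Of all 11334 genes they called 8, 12 and 2 in that order.

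The median log2 fold change over the 10 genes was 0.02 at 0 h vs control, -0.04 at 6 h vs 0 h, 0.17 at 24 h vs 6 h, and 0.15 for 24 h against 0 h. Against the control it was 0.16 at 6 h and 0.37 at 24 h. Over all genes tested, the medians of the same 6 comparisons lay between -0.02 and 0.00. The members therefore did not share a direction at 6 h vs 0 h, where 5 fitted values were positive and 5 negative, and at 24 h vs control 8 were positive and 2 negative.

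**Figure D2:**
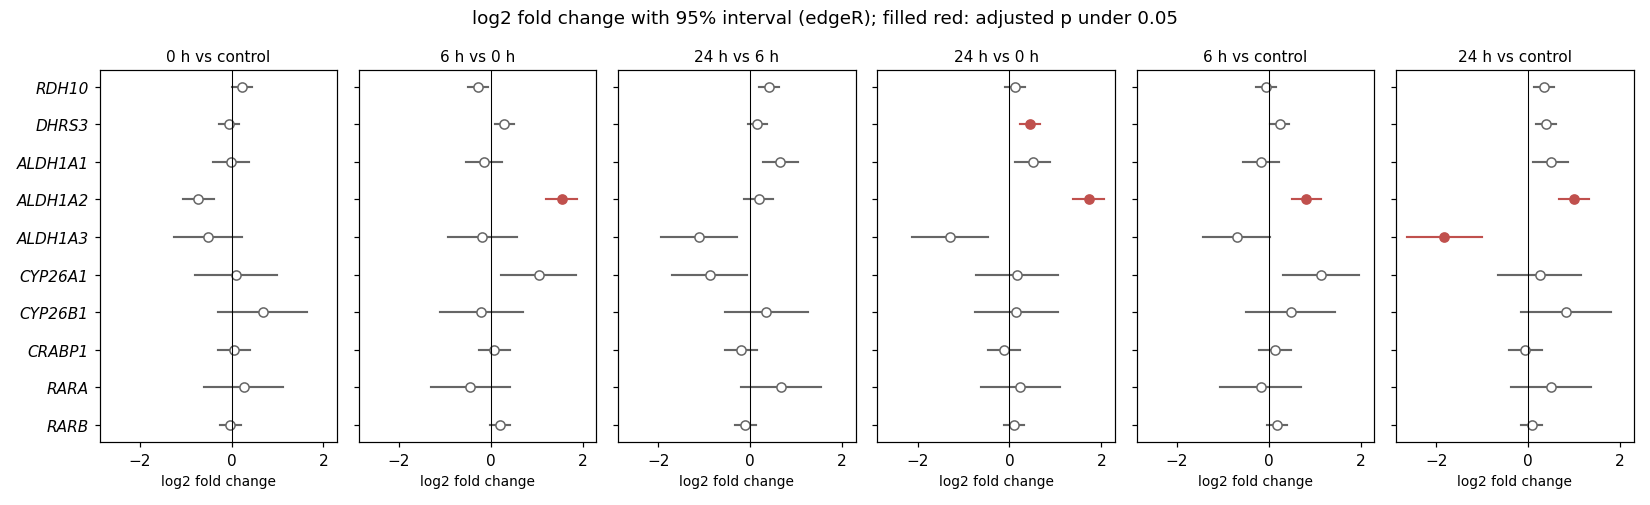
Log2 fold change (horizontal axes) of the 10 genes in 6 comparisons between groups of 4 chicks, with a 95% interval computed from edgeR's fold change and F statistic. The "control" is the No-Lens group, and filled red points have an adjusted p under 0.05. ALDH1A2 is the gene called in 4 of the 6 panels, DHRS3 at 24 h vs 0 h and ALDH1A3 at 24 h vs control, and the widest intervals belong to the low-count CYP26 genes, ALDH1A3 and RARA.

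ALDH1A2, the enzyme that makes retinoic acid in the chick choroid, was called in the most comparisons. In the No-Lens chicks it stood at 131, 227, 164 and 148 CPM, and in the FDMR 0 h chicks at 101, 96.1, 113 and 96.4 CPM. It reached 263, 368, 269 and 282 CPM after 6 h of recovery, and 390, 387, 268 and 309 CPM after 24 h. Every chick of the 6 h and 24 h groups thus lay above every control, and every control above every chick at 0 h, while the 6 h and 24 h chicks overlapped.

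From 0 h to 6 h of recovery ALDH1A2 rose 2.91-fold, from 102 ± 8.14 to 295 ± 48.7 CPM (SD, n = 4), a log2 fold change of 1.54 ± 0.16 (SE, edgeR adjusted p = 4.66e-06). At 24 h it was 338 ± 60.5 CPM, 3.32-fold above 0 h (log2 1.73 ± 0.16, edgeR adjusted p = 8.47e-06). Against the control mean of 168 ± 41.9 CPM it was 1.76-fold higher at 6 h (log2 0.82 ± 0.15, edgeR adjusted p = 0.00408) and 2.01-fold higher at 24 h (log2 1.01 ± 0.15, edgeR adjusted p = 0.00177). All 4 calls held in each of 26 alternative analyses, with a highest adjusted p of 0.0234 at 6 h vs control. Without the shallow FDMR 24 h library the log2 fold changes at 24 h were 1.66 against 0 h and 0.94 against the control, with adjusted p of 6.21e-05 and 0.00927.

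The order of the group means of ALDH1A2 was therefore 0 h, control, 6 h and 24 h. The last step, 24 h vs 6 h, did not pass the test, with a log2 fold change of 0.19 (95% interval -0.13 to 0.51, edgeR adjusted p = 0.575). The first step, from control to 0 h, was larger, a log2 fold change of -0.72 ± 0.16 with each FDMR 0 h chick below each control, yet its edgeR adjusted p was 0.343. Such complete separation downwards was found for 1.68% of all genes. This value depended on the test, since DESeq2 gave an adjusted p of 0.0214 and the likelihood ratio test 0.0134, and over all 26 alternatives it ranged from 0.0134 to 1. Control replicate 2, at 227 CPM, lay farthest from the other controls, and without it the log2 fold change was -0.53 (adjusted p = 0.889).

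PDGFRA, a receptor of connective tissue cells, was the only marker of the connective tissue list called higher, against 0 h and, unlike ALDH1A2, not against the control. Its means of 108 CPM at 6 h and 120 CPM at 24 h still lay above the control mean of 86.1 CPM. It stood between 74.3 and 109 CPM in the controls and between 61.9 and 71.2 CPM at 0 h. At 6 h it stood between 95.2 and 120 CPM (log2 0.68 against 0 h, edgeR adjusted p = 0.00342), where 3.19% of all genes were called. At 24 h it stood between 98.6 and 150 CPM (log2 0.83 against 0 h, edgeR adjusted p = 0.00253), where 1.12% were. PDGFRA was 1 of 6 markers of the list tested. LUM, lumican of the extracellular matrix, was called lower at 24 h against 0 h (log2 -1.71, edgeR adjusted p = 0.0176), against 6 h and against the control. Its counts were low, at 5 to 14 reads per chick at 24 h and 24 to 42 at 0 h. The summed level of the 6 markers was 613 to 728 CPM at 0 h, 574 to 897 CPM at 6 h, 731 to 1080 CPM at 24 h and 568 to 934 CPM in the controls. COL1A2, COL3A1, DCN and FBLN1 were not called in any comparison. For COL1A2 all 24 h chicks lay above all 0 h chicks (log2 0.64, edgeR adjusted p = 0.157), where 6.33% of all genes were separated in either direction. None of the 6 markers was at 0 in every library, and their part in the ALDH1A2 result was not tested.

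ALDH1A3, which carries out the same oxidation of retinal, had a different time course. Its level was 54.8, 66.0, 50.4 and 58.1 CPM in the No-Lens chicks, and 42.7, 22.4, 41.8 and 52.7 CPM at 0 h. It was 49.5, 43.7, 37.0 and 11.2 CPM at 6 h, and 19.3, 1.33, 18.6 and 19.2 CPM at 24 h. Each 24 h chick lay below each control and each 0 h chick, whereas 1 chick of the 6 h group, replicate 4, lay below 3 of the 24 h chicks.

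By 24 h ALDH1A3 fell relative to the control from 57.3 ± 6.58 to 14.6 ± 8.86 CPM (SD, n = 4), a level 3.53-fold lower (log2 -1.82 ± 0.39, edgeR adjusted p = 0.0199). Only 0.882% of all genes were called lower in this comparison. The lowest value, in the shallow FDMR 24 h replicate 2, rested on 2 counts, with a 95% counting interval of 0.16 to 4.8 CPM. Without that library the fall was smaller and still called, by 1.59 on the log2 scale (adjusted p = 0.032). The call was lost when FDMR 24 h replicate 4 was left out (log2 -1.92, adjusted p = 0.0569), without control replicate 2 (log2 -1.75, adjusted p = 0.0684) and under limma-voom (log2 -2.01, adjusted p = 0.109), and adjusted p ranged from 0.000523 to 0.109 over the 26 alternatives.

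The other steps of ALDH1A3 did not pass. Its log2 fold change was -0.52 at 0 h vs control (edgeR adjusted p = 1), -0.19 at 6 h vs 0 h (edgeR adjusted p = 0.91) and -1.12 at 24 h vs 6 h (edgeR adjusted p = 0.173). At 6 h vs control it was -0.70 (edgeR adjusted p = 0.568). Each 6 h chick lay below each control there, where 6.74% of all genes were separated in either direction. Its direct difference at 24 h vs 0 h was -1.30 with a 95% interval of -2.13 to -0.48 (edgeR adjusted p = 0.164). These values moved when FDMR 6 h replicate 4, the chick at 11.2 CPM, was left out. Without it the 24 h chicks had an adjusted p of 0.0255 against 6 h (log2 -1.41) and of 0.0394 against 0 h (log2 -1.30), and the difference at 6 h vs 0 h turned to 0.11.

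Set against each other within a chick, the reads of the 2 enzymes changed their balance, a comparison chosen after the values were seen and given without a test. There were 2.39, 3.44, 3.26 and 2.54 reads of ALDH1A2 for each read of ALDH1A3 in the controls and 2.37, 4.28, 2.72 and 1.83 at 0 h. The ratios were 5.32, 8.41, 7.26 and 25.2 at 6 h, and 20.2, 292, 14.4 and 16.1 at 24 h, where 292 is the chick with 2 reads of ALDH1A3. All recovering chicks lay above all chicks of the control and 0 h groups. Read ratios between genes also depend on gene length, which is the same in every chick. Within groups the log2 CPM of the 2 genes were only weakly related, with a Pearson r of -0.15 over 16 chicks against -0.50 with group differences included.

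**Figure D3:**
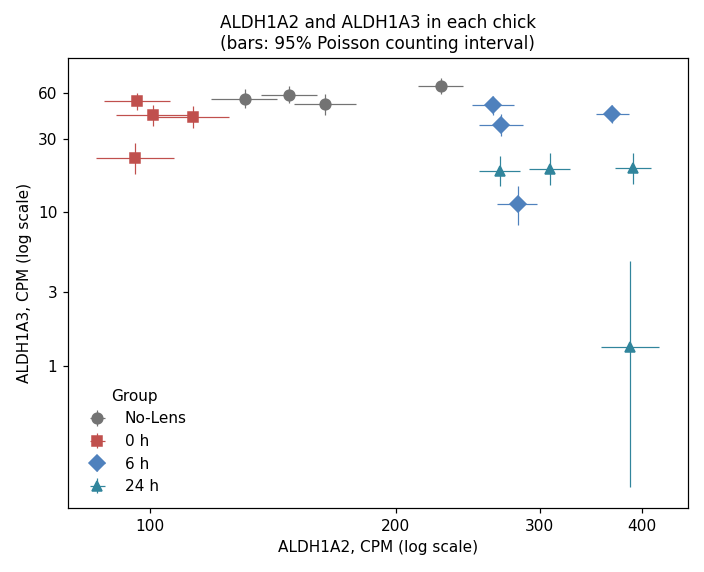
ALDH1A2 (horizontal axis) against ALDH1A3 (vertical axis) in CPM on log scales, where each symbol is a chick, its shape and colour give the group, and the bars are 95% Poisson intervals that cover counting error only. The control and 0 h chicks lie at 96.1 to 227 CPM of ALDH1A2 and 22.4 to 66.0 CPM of ALDH1A3, and the 24 h chicks at 268 to 390 CPM and 1.33 to 19.3 CPM.

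ALDH1A1, the third enzyme of the family and in the embryo a gene of the dorsal retina, was steady until the last group. It measured 16.5, 14.5, 14.2 and 13.8 CPM in No-Lens chicks, 11.5, 16.4, 14.1 and 16.3 CPM at 0 h and 12.3, 16.9, 13.1 and 10.1 CPM at 6 h. At 24 h it measured 26.9, 18.6, 17.0 and 19.8 CPM. All 24 h chicks lay above all 12 others, by a margin as small as 17.0 against 16.9 CPM. The share of all genes with a group separated in this way from all other chicks was not computed.

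None of the comparisons of ALDH1A1 was called. The nearest was 24 h vs 6 h, with a log2 fold change of 0.66 ± 0.18 (edgeR adjusted p = 0.078). DESeq2 placed this difference at an adjusted p of 0.0462 and the likelihood ratio test at 0.0339. Leaving out FDMR 6 h replicate 2 gave 0.81 (adjusted p = 0.0447). Over the 26 alternatives adjusted p lay between 0.0127 and 0.259. The lowest came from the axis covariate described below for RARA, which was chosen after the data were seen and built from the residuals that the test uses. Against 0 h and the control the 24 h values were 0.50 and 0.49 on the log2 scale, with edgeR adjusted p of 0.306 and 0.255.

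DHRS3, the reductase that returns retinal to retinol and is itself known to be switched on by retinoic acid, was higher late in recovery. Its level was 69.4, 64.4, 69.6 and 69.4 CPM without a lens and 70.3, 59.0, 65.4 and 67.7 CPM at 0 h. It was 83.1, 77.3, 66.9 and 94.0 CPM at 6 h and 90.2, 74.4, 99.5 and 90.8 CPM at 24 h. The 24 h chicks all lay above the control and 0 h chicks, and the 6 h chicks overlapped with every other group.

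Between 0 h and 24 h DHRS3 rose 1.37-fold, from 65.6 ± 4.87 to 88.7 ± 10.5 CPM (SD, n = 4), which is 0.45 ± 0.10 on the log2 scale (edgeR adjusted p = 0.034). Among all genes, 0.591% were called higher in this comparison. The call was close to the threshold. It was lost without any of 7 of the 8 chicks compared, with adjusted p from 0.0505 without FDMR 0 h replicate 1 to 0.146 without FDMR 24 h replicate 3, and it was kept without the shallow FDMR 24 h replicate 2 (log2 0.51, adjusted p = 0.0179). With all libraries thinned to the smallest depth the log2 fold change was 0.41 (adjusted p = 0.206). Without FDMR 0 h replicate 2, replicate 3 or replicate 4 the adjusted p was 0.117, 0.101 and 0.0832, and without FDMR 24 h replicate 1 or replicate 4 it was 0.08 and 0.104.

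Against the control, the 24 h difference in DHRS3 was 0.40 ± 0.10 on the log2 scale and just missed the threshold (edgeR adjusted p = 0.0653). It was called by DESeq2 (adjusted p = 0.0197) and by the likelihood ratio test (adjusted p = 0.0173). By the quasi-likelihood test it was called without FDMR 6 h replicate 3 (adjusted p = 0.0419), FDMR 6 h replicate 4 (0.0367) or FDMR 24 h replicate 2 (log2 0.46, adjusted p = 0.0307). Adjusted p ranged from 0.00824 to 0.287 over the alternatives, the lowest again with the axis covariate chosen after the data were seen. At 0 h vs control the value was -0.05 with a 95% interval of -0.27 to 0.16. In the RefSeq annotation the gene overlaps 9 others, 8 of them protein coding, and the strand setting of the authors' counting is not given in the sources used here, so a share of reads from neighbours was not tested.

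RDH10, which starts the pathway by oxidising retinol, had group means of 117 ± 17.1, 136 ± 12.4, 112 ± 7.61 and 148 ± 19.9 CPM (SD, n = 4) in the order of control, 0 h, 6 h and 24 h. It stood at 116, 113, 141 and 99.7 CPM in No-Lens chicks and at 139, 120, 150 and 136 CPM at 0 h. At 6 h it stood at 107, 111, 123 and 107 CPM and at 24 h at 176, 128, 143 and 144 CPM. The 24 h chicks lay above all 6 h chicks and overlapped with the 0 h and control chicks.

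The difference in RDH10 at 24 h vs 6 h was 1.33-fold (log2 0.41 ± 0.11, edgeR adjusted p = 0.0527), just short of a call. It passed in 12 of 26 alternatives, among them DESeq2 (adjusted p = 0.012), RLE size factors (0.0448) and the fit without FDMR 24 h replicate 2 (log2 0.46, adjusted p = 0.0348). It also passed without control replicate 1 (adjusted p = 0.0456), control replicate 3 (0.0336), control replicate 4 (0.0376) or FDMR 0 h replicate 2 (0.0497), which are in neither group compared. Adjusted p ranged from 0.00541 to 0.159. The lowest, also among the 12, came from the axis covariate chosen after the data were seen. At 6 h vs 0 h the value was -0.28 (edgeR adjusted p = 0.225), and at 24 h vs control it was 0.35 (edgeR adjusted p = 0.138), where leaving out control replicate 3, at 141 CPM, gave 0.44 (adjusted p = 0.0468).

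Counting chicks that do not overlap, ALDH1A1 and RDH10 were the 2 members with all 24 h chicks above all 6 h chicks, as were 3.02% of all genes. Relative to 0 h, ALDH1A1, ALDH1A2 and DHRS3 at 24 h lay wholly higher and ALDH1A3 wholly lower, against 6.33% of all genes in either direction. The same 4 genes were separated the same way at 24 h vs control, against 6.31%. These 2 comparisons share the 24 h chicks.

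CYP26A1, an enzyme that breaks down retinoic acid and whose gene the acid induces, was low throughout, with 3 to 37 reads per chick. It gave 3.36, 2.53, 3.31 and 2.54 CPM in No-Lens chicks and 3.56, 3.16, 0.86 and 4.54 CPM at 0 h. It gave 6.37, 4.28, 6.69 and 8.46 CPM at 6 h and 2.47, 1.99, 6.44 and 2.14 CPM at 24 h. All 6 h chicks lay above all controls, and the 0 h and 24 h groups each held a chick that overlapped with the 6 h range.

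The mean of CYP26A1 was 2.93 ± 0.46 CPM (SD, n = 4) without a lens and 6.45 ± 1.71 CPM after 6 h, a log2 fold change of 1.14 with a 95% interval of 0.31 to 1.97 (edgeR adjusted p = 0.207). At 6 h vs control 6.74% of all genes had chicks that did not overlap, and ALDH1A2, CYP26A1 and ALDH1A3 were the members among them. At 6 h vs 0 h the value was 1.04 (95% interval 0.23 to 1.86, edgeR adjusted p = 0.233), and at 24 h vs 6 h it was -0.89 (edgeR adjusted p = 0.285). No alternative called any comparison of this gene. Its value of 0.16 at 24 h vs 0 h turned to -0.46 without FDMR 24 h replicate 3, the chick at 6.44 CPM, and to -0.13 without FDMR 0 h replicate 3.

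CYP26B1, the other enzyme of breakdown, had only 2 to 12 reads per chick. Its levels ran from 0.66 to 1.38 CPM in the controls, from 0.86 to 3.01 CPM at 0 h, from 0.98 to 2.57 CPM at 6 h and from 1.24 to 2.94 CPM at 24 h. All groups overlapped. A count of 2, as in control replicate 3, has a 95% counting interval of 0.24 to 7.22 reads. The 95% interval at 6 h vs control, -0.50 to 1.45, was wide enough to hold the value of ALDH1A2 there, so a difference of that size was not excluded. The largest fitted value, at 24 h vs control, was 0.83 with a 95% interval of -0.15 to 1.80 (edgeR adjusted p = 0.434).

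CRABP1, which binds retinoic acid in the cytoplasm, stood at 48.4, 40.9, 31.1 and 35.1 CPM in No-Lens chicks and at 51.2, 40.0, 39.2 and 32.6 CPM at 0 h. It stood at 39.0, 49.0, 40.4 and 42.8 CPM at 6 h and at 41.0, 23.3, 42.8 and 37.9 CPM at 24 h, where the low value was the shallow replicate 2. All groups overlapped, and the fitted log2 fold changes ran from -0.20 at 24 h vs 6 h to 0.14 at 6 h vs control. The 95% interval at 24 h vs 0 h was -0.48 to 0.24.

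RARB, a receptor whose own gene is a known target of retinoic acid, differed little between chicks, with SDs of 6.06% to 9.87% of the group mean. It gave 34.7, 32.6, 34.1 and 30.2 CPM in No-Lens chicks, 35.6, 30.8, 34.0 and 29.1 CPM at 0 h, 35.8, 40.1, 40.4 and 32.7 CPM at 6 h and 36.3, 35.2, 31.0 and 36.3 CPM at 24 h. The groups overlapped in every comparison. The largest fitted value was 0.20 at 6 h vs 0 h (95% interval -0.01 to 0.42, edgeR adjusted p = 0.471), and at 24 h vs 0 h it was 0.10 (95% interval -0.12 to 0.32).

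RARA, a widely expressed receptor, had large differences between chicks of the same group. It gave 7.27, 20.5, 28.8 and 40.8 CPM in No-Lens chicks and 15.1, 40.3, 36.9 and 26.2 CPM at 0 h. It gave 15.7, 18.4, 19.8 and 32.5 CPM at 6 h and 13.3, 43.8, 40.0 and 44.1 CPM at 24 h. Every group overlapped with every other, with SDs of 34.5% to 58% of the group mean, against 6.06% to 9.87% for RARB.

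No comparison of RARA was called, and the largest value, at 24 h vs 6 h, was 0.68 with a 95% interval of -0.20 to 1.55 (edgeR adjusted p = 0.442). Across chicks, once group means were removed, its log2 CPM followed the main axis of differences between chicks of a group, the first principal component of all genes, which took up 39.5% of that variance. Pearson r was 0.98 over 16 chicks, and only 0.459% of genes had a larger absolute r. For the other 9 members r lay between -0.62 (CRABP1) and 0.11 (ALDH1A2). With this axis as a covariate, an alternative chosen after the data were seen and built from the same residuals that the test uses, RARA was called for 24 h against 6 h (log2 0.68, adjusted p = 0.000825) and against the control (log2 0.68, adjusted p = 0.000993), within ranges of 0.000825 to 0.674 and 0.000993 to 0.913 over all alternatives. With this covariate 1384 of the 11334 genes were called at 24 h vs 6 h, against 220 without it. At 24 h vs control 1302 were called with it, against 151 without. The origin of the axis was not tested.

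Other genes handle vitamin A upstream of these enzymes. Of 16 genes of uptake, carriage and storage listed, 12 were tested. At 6 h vs 0 h 2 of them, LRAT and the purpurin gene, were called lower and none higher, where 3.19% of all genes were called, and the same 2 were called lower at 6 h vs control, where 2.74% were. From 6 h to 24 h LRAT, purpurin, RBP3 and BCMO1, 4 of the 12, were called higher, where 1.94% of all genes were called, and from 0 h to 24 h only BCMO1 was, also higher, where 1.12% were. The remaining 8 of the 12 gave no call in any comparison. The list had a median of -0.10 at 6 h vs 0 h and then of 0.42 at 24 h vs 6 h, where the medians of all genes were 0.00 and -0.02.

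LRAT, which esterifies retinol for storage in the RPE, stood between 114 and 140 CPM at 0 h, between 59.9 and 70 CPM at 6 h and between 105 and 150 CPM at 24 h. The 6 h chicks lay below all others, a separation whose share over all genes was not computed. The log2 fold change was -0.95 against 0 h (edgeR adjusted p = 3.4e-06), with a 2-fold rise from 6 h to 24 h (edgeR adjusted p = 9.65e-06). Purpurin, a retinol-binding protein secreted by photoreceptors that RefSeq lists as RBP4, fell from 4528 ± 281 CPM at 0 h to 1117 ± 175 CPM at 6 h (SD, n = 4, log2 -2.02, edgeR adjusted p = 1.22e-09) and stood at 3849 ± 475 CPM at 24 h. Of 5 cone markers tested, 3 (ARR3, CNGA3 and PDE6C) were called lower at 6 h vs 0 h, where 3.19% of all genes were called. PDE6H was not called there, nor was GNAT2 (log2 0.01, edgeR adjusted p = 0.986). Summed levels of the 5 were 4165 to 4704 CPM at 6 h against 5607 to 6362 CPM at 0 h. Of 5 rod markers tested, PDE6B was called lower at 6 h vs 0 h, with means of 160 and 377 CPM, and the other 4 were not called. At 6 h vs control PDE6B was called lower and CNGA1 higher, where 2.74% of all genes were called. Summed levels of the 5 rod markers were 2076 to 2538 CPM at 6 h against 2650 to 2937 CPM at 0 h. The part of the cone and rod markers in the purpurin result was not tested.

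BCMO1, which cleaves beta-carotene into retinal, was at 64.6 to 76.3 CPM at 0 h and at 130 to 153 CPM at 24 h (log2 1.02 at 24 h vs 0 h, edgeR adjusted p = 0.00418). Its 24 h chicks lay above all other chicks, a separation whose share over all genes was not computed. Against the control its 24 h difference was 0.69 on the log2 scale and was not called (edgeR adjusted p = 0.0519). RBP3, the carrier of retinoids between photoreceptors and RPE, was at 542 to 774 CPM at 6 h and at 776 to 1081 CPM at 24 h (log2 0.48, edgeR adjusted p = 0.0265). The rise in BCMO1 at 24 h was thus in the direction of ALDH1A2, and LRAT and purpurin at 6 h were in the opposite direction. RGR, a retinal-binding opsin of the RPE, was the other RPE marker called at 6 h vs 0 h (log2 0.40, edgeR adjusted p = 0.023), while the summed level of the 8 RPE markers was 1928 to 2018 CPM at 0 h, 1866 to 2262 CPM at 6 h and 2055 to 2557 CPM at 24 h.

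**Figure D4:**
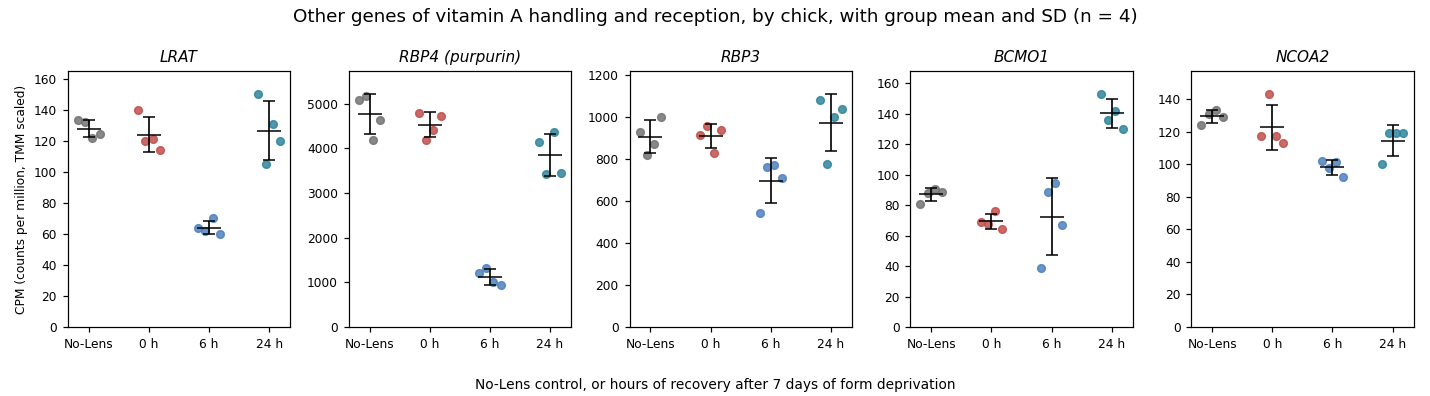
Level in CPM (vertical axes, each starting at 0) of 5 other retinoid genes by group, where points are chicks and bars the mean and SD of 4 chicks; they are the genes of uptake, carriage, storage, receptors and coregulators that passed the test in at least 1 comparison. LRAT and purpurin are lowest in the 6 h chicks, and BCMO1 is highest in the 24 h chicks, at 130 to 153 CPM.

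The other enzymes of the pathway gave no call in any comparison. This held for 7 genes tested of 14 listed that oxidise or reduce retinol and retinal, for CYP1B1, the only gene tested of 3 further P450 enzymes listed, and for FABP5, which carries retinoic acid to other receptors and was the only gene tested of 2 binding proteins. By edgeR at an unadjusted p under 0.05, 6 of 42 values of the first list (ADH5, RDH5, RDH8 and RETSAT), 2 of 6 for CYP1B1 and 0 of 6 for FABP5 passed over the 6 comparisons, where 10.7% of the values of all genes did. Among 8 receptors and coregulators tested, only NCOA2, a coactivator of nuclear receptors, was called. It was lower at 6 h, at 91.9 to 102 CPM against 113 to 143 CPM at 0 h (log2 -0.32, edgeR adjusted p = 0.0341) and against 124 to 133 CPM in the controls (log2 -0.40, edgeR adjusted p = 0.00747). Of all genes, 3.19% and 2.74% were called in these 2 comparisons. By edgeR's unadjusted p, 12 of 48 values of this list were under 0.05, from NCOA1, NCOA2, NCOA3, NCOR1 and NRIP1, against the same 10.7%.

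Among all genes with a symbol, those whose log2 CPM most resembled ALDH1A2 over the 16 chicks were NPR3 (Pearson r = 0.96), RGS16 (0.96) and PTX3 (0.94). For ALDH1A3 they were GOLPH3 (0.93), SLC38A2 (0.92) and TMC7 (0.91), and for DHRS3 they were ERP29 (0.86), ATP7B (0.82) and TTYH3 (0.80). ALDH1A2 and DHRS3 had an r of 0.67 with each other over all chicks and of -0.35 within groups, so their likeness lay between groups. These points share group differences and libraries, and the values are descriptions.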

How the data were processed

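RNA of the retina/RPE/choroid was sequenced by the authors as single-end 100-base reads from a stranded kit. The deposited values are raw counts of uniquely mapped reads per gene, made with Cutadapt, Trimmomatic, TopHat2, Bowtie2 and HTSeq on galGal4, without normalization. The annotation version and strand setting are not given in the sources used here. Reads on no gene, ambiguous or not unique made up 41.9% to 45.9% of a library, and these 6 lines that name no gene were left out.

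The 11334 genes that reached 10 counts in 4 or more libraries were fitted in R 4.3.3 with edgeR 4.0.16 (TMM, quasi-likelihood, 4 group means in 1 fit, Benjamini-Hochberg FDR of 5%). Log2 CPM used a prior count of 2. Alternatives were DESeq2 1.42.0, limma 3.58.1 (voom), the likelihood ratio test, RLE factors, no filter or a filter at 1 CPM, only the groups compared, thinning to 1553717 counts, an FDR of 1%, each chick left out, and, added after the data were seen, the axis between chicks as a covariate. The fits were tested on simulated data in which genes varied independently of each other. The axis shared by chicks of a group was absent there, so the calls were not tested under it. Counting intervals are exact Poisson and cover counting error only. Symbols for 37 genes, besides ALDH1A3 and CRABP1, came from RefSeq accessions. Members, gene lists and the rule for named genes (the 10 members, called genes of the wider lists and the 3 genes most alike to each called member) were chosen with earlier results of these data known. A list of genes that respond to retinoic acid is not reported here. Figures used Python 3.11.15 and matplotlib 3.10.9.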

Additional observations from a re-analysis of the deposited data

Results flagged for a closer look

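Within groups of 4 chicks, a chick stood apart from its group in 4 of the 40 combinations of gene and group, by the ratio of its gap to the range of the group set against its critical value, and chance alone gives about 1 in 20. ALDH1A3 was at 1.33 CPM in FDMR 24 h replicate 2, the shallowest library, against 18.6 to 19.3 CPM in the other chicks of that group. RARA was at 13.3 CPM in FDMR 24 h replicate 1, against 40.0 to 44.1 CPM. CYP26A1 was at 6.44 CPM in FDMR 24 h replicate 3, against 1.99 to 2.47 CPM. DHRS3 was at 64.4 CPM in control replicate 2, against 69.4 to 69.6 CPM, a gap that is large only because the other controls lay so close together. Of the 4, 3 were in the FDMR 24 h group and each in a different chick.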

How the results depend on the processing

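Of the 60 fold changes of members, recomputed under up to 26 alternatives, 1453 of 1524 values kept their direction and their side of the threshold. A further 14 lost and 33 gained a call, and the gains include those of the axis covariate, which was added after the data were seen. In 24 the sign turned, none of them called before or after, among main values of at most 0.267 on the log2 scale. Outside the fits that left out a chick, the sign turned for CYP26A1 at 0 h vs control under limma-voom (-0.0638), for CRABP1 in thinned libraries at 6 h vs 0 h (-0.0226) and 24 h vs control (0.0569), and for RARA at 6 h vs control with the axis covariate (0.00273).

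With a chick left out, the sign turned within these ranges of the log2 fold change. At 0 h vs control they were -0.0772 to 0.0833 for ALDH1A1, -0.19 to 0.39 for CYP26A1, -0.031 to 0.658 for RARA, -0.0737 to 0.0259 for RARB and -0.07 to 0.18 for CRABP1. At 6 h vs 0 h they were -0.39 to 0.11 for ALDH1A3 and -0.0211 to 0.207 for CRABP1. At 24 h vs 0 h they were -0.46 to 0.45 for CYP26A1, -0.0719 to 0.363 for CYP26B1 and -0.218 to 0.0123 for CRABP1. At 6 h vs control they were -0.135 to 0.0319 for RDH10 and -0.48 to 0.21 for RARA, and at 24 h vs control -0.37 to 0.44 for CYP26A1 and -0.146 to 0.0633 for CRABP1.

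The number of members called moved as follows. At 0 h vs control it was 1 under DESeq2, the likelihood ratio test and the axis covariate. At 24 h vs 6 h it was 1 with RLE factors, no filter, only the groups compared or thinned libraries, 2 under DESeq2 and the likelihood ratio test, 4 with the axis covariate, and 0 to 1 with a chick left out. At 24 h vs 0 h it was 1 with only the groups compared, thinned libraries or an FDR of 1%, 3 with the axis covariate and 1 to 3 with a chick left out. At 24 h vs control it was 1 under limma-voom or an FDR of 1%, 3 under DESeq2 and the likelihood ratio test, 5 with the axis covariate and 1 to 3 with a chick left out. In the joint test it was 1 with no filter or an FDR of 1%, 3 under DESeq2, 5 under the likelihood ratio test, 6 with the axis covariate and 1 to 3 with a chick left out. All genes called, of 11334 tested, moved too. At 0 h vs control they went from 3 to 8 under DESeq2, 12 under the likelihood ratio test and 82 with the axis covariate. In that order they went from 220 to 340, 378 and 1384 at 24 h vs 6 h. At 24 h vs 0 h they went from 127 to 194, 225 and 472. At 24 h vs control they went from 151 to 261, 298 and 1302. The joint test went from 420 to 649, 677 and 1559. Other settings often called fewer genes. At 24 h vs 0 h these were 112 with only the groups compared and 54 at an FDR of 1%. Thinned libraries called 90 of 10226 genes there. At 24 h vs control 130 were called under limma-voom and 73 at an FDR of 1%. The joint test called 233 at an FDR of 1% and 390 of 14920 with no filter. At 24 h vs 6 h RLE factors called 223 and only the groups compared 190. Thinned libraries called 161 of 10226 there, and no filter 209 of 14920. With a chick left out all genes called ran from 64 to 154 at 24 h vs 0 h. In those fits they ran from 117 to 297 at 24 h vs 6 h and from 92 to 174 at 24 h vs control. The joint test then called 312 to 487. The cause of these moves was not tested.

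CYP26A1 and CYP26B1 had too few counts to be tested in thinned libraries, and CYP26B1 failed the filter in 4 of the 16 fits without a chick. No paired analysis was possible because the labels number every chick separately and no number is shared between groups.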
